A study of Mus musculus with 9 samples.

Results

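The 5 ligand genes Areg, Ereg, Hbegf, Tgfa and Btc and the 3 receptor genes Egfr, Erbb2 and Erbb3 were described in mouse tumours treated with digoxin. They were chosen by gene symbol, as EGF-family ligands and their receptors, and make up 8 of the 35321 genes in the table. Poly(A) RNA was sequenced from tumours of Lewis lung carcinoma (LLC) cells, a C57BL/6 line, grown under the skin of the right flank in male C57BL/6 mice that were 4 to 5 weeks old. Intraperitoneal treatment started 5 days after the cells were injected, and the 3 groups of 3 samples received vehicle (PBS), 0.1 mg/kg digoxin or 1 mg/kg digoxin. No genotype or transgene is given for the mice or the cells, and all groups carried the same tumour line. The labels do not give the time of tumour collection, nor whether each sample is from another mouse, so the spread behind every p-value may be technical. Digoxin, a cardiac glycoside, blocks the Na,K-ATPase, the pump that moves sodium out of cells and potassium in.

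EGF-family ligands are made as membrane-bound precursors that are cut off the cell surface by ADAM proteases and then bind receptor tyrosine kinases of the ERBB family on the same or nearby cells. Areg and Tgfa encode ligands of the EGF receptor (Egfr), and Hbegf, Ereg and Btc encode ligands that also bind ErbB4. ErbB2 has no known ligand and pairs with the other receptors, while ErbB3 has little kinase activity, binds neuregulins and signals through its partner. In many carcinomas this system drives proliferation through the RAS-ERK and PI3K-AKT pathways, and it is held back by inhibitors that ERK itself induces.

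Levels were the deposited FPKM values (fragments scaled by gene length and library depth). Orders and shares between genes depend on the gene lengths used, whose annotation is not given in the sources used here. A gene was tested if it reached 1 FPKM in 3 or more of the 9 samples (13687 genes), which took in 7 of the 8 ligand and receptor genes and left out Btc. Differences were tested with limma on log2(FPKM + 1), a scale that understates the change of low genes, and p-values were adjusted over all 13687 genes by the Benjamini-Hochberg method with a threshold of 0.05. The recovered depth of the vehicle libraries ranged over 48649867 to 51810956, that of the 0.1 mg/kg libraries over 42870997 to 43319883, and that of the 1 mg/kg libraries over 40517062 to 42252370. On the first principal component of the tested genes (69.4% of the variance), 4 digoxin libraries scored 35.7 to 37.9 and the vehicle libraries −55.0 to −47.6. Sample 2 of the 0.1 mg/kg group (−0.60) and sample 1 of the 1 mg/kg group (9.12) lay between, and results are given with and without this pair of libraries. The pair was picked from these same data for lying nearest to vehicle, so results without it are descriptions and not checks. Leaving it out raised the calls over all tested genes at 0.1 mg/kg from 2952 higher and 2829 lower to 4371 and 4053. Of the lung epithelium markers, 5 of 6 were under 1 FPKM in every sample, with Ager the exception at 2.0 to 5.98 FPKM, and Epcam of the simple epithelium list did not exceed 0.149 FPKM.

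Most ligand genes were higher at 1 mg/kg than with vehicle, and the gene of the receptor they bind was lower at both doses. The ligand genes Ereg and Tgfa and the receptor gene Erbb3 were higher at both doses, Areg and Hbegf were higher at 1 mg/kg, and Egfr was lower at both doses. Of the 7 genes tested, limma called 3 higher at 0.1 mg/kg than with vehicle (Ereg, Tgfa and Erbb3), where 21.6% of all tested genes were called higher. It called 1 lower (Egfr), beside 20.7% of all tested genes. At 1 mg/kg it called 5 higher (Areg, Ereg, Hbegf, Tgfa and Erbb3), beside a background of 20.7%, and 1 lower (Egfr), beside 25.2%. The median log2 fold change of the 7 genes was 0.38 at 0.1 mg/kg and 0.84 at 1 mg/kg, beside 0.02 and −0.04 over all tested genes. The split of calls over all genes at 0.1 mg/kg moved with the scaling, with 2952 higher and 2829 lower as deposited, 2368 and 3790 after rescaling to TPM, and 2403 and 3552 after quantile normalisation. Tgfa and Erbb3 reached 1 FPKM only in digoxin samples, so they passed the filter only through the samples where they were high. Btc, which was low and lower with digoxin, was left out by the same filter. The counts and medians of the 7 genes rest in part on this selection. Both doses were set against the same vehicle samples. The 3 digoxin values lay above the 3 vehicle values without overlap for 3 of the 7 genes at 0.1 mg/kg (32.3% of all tested genes) and for 5 at 1 mg/kg (25.2%). They lay below for 2 at 0.1 mg/kg (Egfr and Erbb2, beside 27.9%) and for 1 at 1 mg/kg (Egfr, beside 33.1%).

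The promoters of a ligand gene that was higher at 1 mg/kg and of the receptor gene that was lower at both doses are shown first, because these genes had opposite directions in the same tumours. The 250 bases before the start site are from RefSeq (GRCm38.p6), Areg from chr5:91139349-91139598 and Egfr from chr11:16751953-16752202, both on the plus strand. In the Areg sequence the capitals mark a cAMP response element (CRE, TGACGTCA) that begins 61 bases before the start and a TATA box (TATAAA) that begins 31 bases before it. In the Egfr sequence they mark a GC box, read on the other strand as CCGCCC, that begins 9 bases before the start.
Areg promoter: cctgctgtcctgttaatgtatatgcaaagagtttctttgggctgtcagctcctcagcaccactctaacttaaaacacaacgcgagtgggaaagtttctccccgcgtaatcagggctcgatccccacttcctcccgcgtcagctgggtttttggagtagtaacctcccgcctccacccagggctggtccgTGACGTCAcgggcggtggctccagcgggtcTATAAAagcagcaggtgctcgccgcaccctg
Egfr promoter: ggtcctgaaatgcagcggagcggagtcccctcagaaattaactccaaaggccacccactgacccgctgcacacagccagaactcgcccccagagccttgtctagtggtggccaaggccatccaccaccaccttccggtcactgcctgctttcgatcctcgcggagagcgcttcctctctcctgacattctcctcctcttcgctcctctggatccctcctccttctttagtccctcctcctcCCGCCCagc
The promoter table held 5 of the 8 genes (Areg, Btc, Tgfa, Egfr and Erbb2). These were searched on both strands for the CRE (TGACGTCA), the AP-1 site (TGANTCA), the GC box (GGGCGG) and the serum response factor's CArG box, and on the forward strand for TATAAA. No marked match overlaps another motif searched. Of these 5 promoters, only that of Areg holds a CRE or a TATA box, beside 1.55% and 7.59% of 32851 RefSeq promoter windows of the same length. A GC box, in 32.7% of all windows, was found at 1 place in Areg and in Egfr and at 2 in Tgfa. AP-1 (6.75% of all windows) and CArG (1.47%) letters were not in any of the 5 windows. A match describes letters and does not show that a factor was bound.

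Ereg, which encodes epiregulin, had the highest log2 fold change of the tested ligand genes at 1 mg/kg. It had 3.0, 3.55 and 2.54 FPKM with vehicle, 8.93, 6.18 and 4.94 FPKM at 0.1 mg/kg and 29.4, 11.2 and 14.6 FPKM at 1 mg/kg. All digoxin samples lay above all vehicle samples, and all 1 mg/kg samples above all 0.1 mg/kg samples. The level averaged 18.4 ± 9.71 FPKM at 1 mg/kg and 3.03 ± 0.508 FPKM with vehicle (SD, n = 3 each), a ratio of means of 6.08 and a log2 fold change of 2.16 (SE 0.32, limma adjusted p = 0.00156). The lower dose averaged 6.68 ± 2.04 FPKM (n = 3), 2.2 times the vehicle mean, with a log2 fold change of 0.91 (SE 0.32, limma adjusted p = 0.0488). This call at 0.1 mg/kg was lost when any 1 of 7 of the 9 samples was left out, with a limma adjusted p of up to 0.156 without 0.1 mg/kg sample 1, and under quantile normalisation (adjusted p = 0.0683) and TPM (0.0545). Without the libraries that lay between the groups, Ereg differed by 0.94 at 0.1 mg/kg (limma adjusted p = 0.00824) and by 1.78 at 1 mg/kg (0.000396).

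Areg, which encodes amphiregulin, had the highest FPKM of the ligand genes in every sample. This order is per length. In the vehicle samples Hbegf had 1905, 1802 and 1727 recovered reads, against 887, 832 and 543 for Areg. It had 15.0, 13.7 and 8.63 FPKM with vehicle, 14.4, 21.8 and 13.0 FPKM at 0.1 mg/kg and 63.2, 22.4 and 23.4 FPKM at 1 mg/kg. The 0.1 mg/kg samples overlapped the vehicle samples, while every 1 mg/kg sample was above both other groups and sample 1 stood far above its group. The 1 mg/kg samples averaged 36.3 ± 23.3 FPKM, against 12.4 ± 3.37 FPKM with vehicle (SD, n = 3 each), with a log2 fold change of 1.34 (SE 0.39, limma adjusted p = 0.0225). The change was 0.86 without 1 mg/kg sample 1 (limma adjusted p = 0.0229), and the call was lost without vehicle sample 2 (0.0509) or vehicle sample 3 (0.0826). The log2 fold change of 0.38 at 0.1 mg/kg did not pass (SE 0.39, limma adjusted p = 0.457).

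Hbegf, which encodes the heparin-binding ligand that also serves as the diphtheria toxin receptor in humans, passed the test against vehicle at 1 mg/kg and not at 0.1 mg/kg. It had 8.10, 7.45 and 6.90 FPKM with vehicle, 6.69, 7.99 and 4.96 FPKM at 0.1 mg/kg and 23.3, 10.7 and 11.4 FPKM at 1 mg/kg. The lower dose overlapped vehicle and the higher dose lay above both, again with sample 1 the highest. The mean was 15.1 ± 7.07 FPKM at 1 mg/kg and 7.48 ± 0.603 FPKM with vehicle (SD, n = 3 each), with a log2 fold change of 0.84 (SE 0.27, limma adjusted p = 0.031). It was 0.51 without 1 mg/kg sample 1 (limma adjusted p = 0.0285), and the call was lost without vehicle sample 1 (0.0612), 2 (0.0787) or 3 (0.091). At 0.1 mg/kg the log2 fold change was −0.19 (SE 0.27, limma adjusted p = 0.595), and −0.32 without the libraries that lay between the groups (adjusted p = 0.0445).

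Tgfa, which encodes transforming growth factor alpha, was higher at both doses. It had 0.573, 0.745 and 0.535 FPKM with vehicle, 2.55, 1.47 and 2.38 FPKM at 0.1 mg/kg and 1.80, 2.29 and 2.51 FPKM at 1 mg/kg. Every digoxin sample was above every vehicle sample, and the digoxin groups overlapped. The lowest digoxin values were those of the 2 libraries that lay between the groups. The mean was 2.13 ± 0.583 FPKM at 0.1 mg/kg, against 0.618 ± 0.112 FPKM with vehicle (SD, n = 3 each), a ratio of 3.45 and a log2 fold change of 0.94 (SE 0.16, limma adjusted p = 0.00338). The 1 mg/kg mean of 2.2 ± 0.365 FPKM (n = 3) was 3.56 times that with vehicle, with a log2 fold change of 0.98 (SE 0.16, limma adjusted p = 0.00236). These calls held when each sample was left out in turn. Without the pair of libraries between the groups, which held those lowest digoxin values, the changes were 1.10 and 1.07.

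Btc, which encodes betacellulin, had lower values at both doses than with vehicle, at levels below the filter. It had 0.168, 0.141 and 0.278 FPKM with vehicle, 0.0619, 0.0155 and 0.0409 FPKM at 0.1 mg/kg and 0.0471, 0.0327 and 0.0328 FPKM at 1 mg/kg. These values stood for 37, 32 and 65 recovered reads with vehicle, 12, 3 and 8 reads at 0.1 mg/kg and 9, 6 and 6 reads at 1 mg/kg. Every digoxin sample was below every vehicle sample, and the vehicle mean was 4.97 times that at 0.1 mg/kg and 5.22 times that at 1 mg/kg. An exact two-sided permutation test gave p = 0.1 for each dose against vehicle, the smallest that 3 samples against 3 allow. In an added limma-voom fit on recovered reads that kept genes with at least 10 reads, the log2 fold change was −2.37 at 0.1 mg/kg (adjusted p = 0.0112) and −2.26 at 1 mg/kg (adjusted p = 0.0122).

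**Figure D1:**
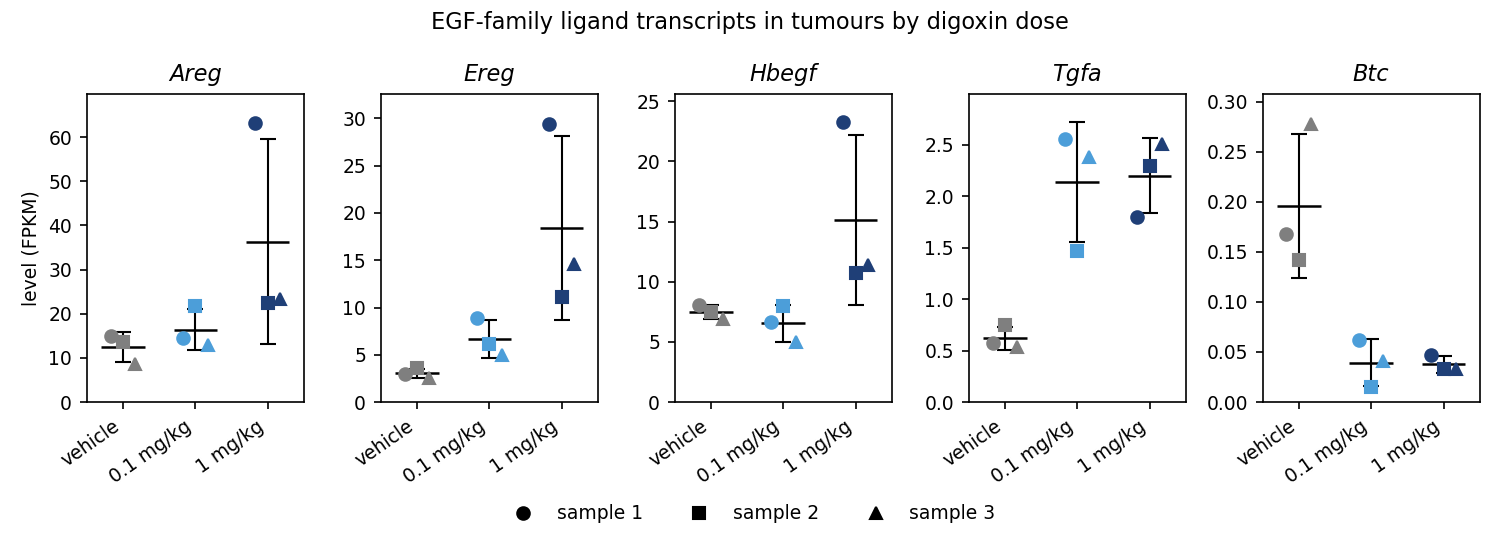
Level of each ligand transcript (FPKM, linear axes from 0) in the 9 samples by group; points are samples, with the same marker for a sample number, and lines with bars are the mean ± SD (n = 3). The 1 mg/kg samples of Areg, Ereg and Hbegf lie above all others with sample 1 highest (63.2, 29.4 and 23.3 FPKM), Tgfa is higher at both doses, and Btc is lower at both.

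Egfr, the receptor shared by all 5 ligands, was the receptor transcript that fell. It had 4.35, 5.63 and 6.16 FPKM with vehicle, 0.451, 2.23 and 0.402 FPKM at 0.1 mg/kg and 1.25, 0.524 and 0.377 FPKM at 1 mg/kg. No digoxin sample reached the lowest vehicle sample, and the highest digoxin values were those of the 2 libraries that lay between the groups. The mean was 1.03 ± 1.04 FPKM at 0.1 mg/kg and 5.38 ± 0.933 FPKM with vehicle (SD, n = 3 each), with a log2 fold change of −1.76 (SE 0.33, limma adjusted p = 0.00453). The 1 mg/kg mean was 0.718 ± 0.468 FPKM (n = 3) and the log2 fold change −1.92 (SE 0.33, limma adjusted p = 0.0027). The vehicle mean was thus 5.23 times that at 0.1 mg/kg, and 12.6 times without 0.1 mg/kg sample 2. It was 7.49 times that at 1 mg/kg, and 11.9 times without 1 mg/kg sample 1. The calls held when each sample was left out in turn, and without the libraries between the groups the changes were −2.15 and −2.13.

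Erbb3, which encodes the neuregulin receptor with little kinase activity, was higher at both doses at a low level. It had 0.150, 0.219 and 0.205 FPKM with vehicle, 1.48, 0.588 and 1.24 FPKM at 0.1 mg/kg and 0.806, 1.05 and 1.15 FPKM at 1 mg/kg. All digoxin samples were above all vehicle samples, and the lowest digoxin values were again those of the libraries that lay between the groups. The mean at 0.1 mg/kg was 1.10 ± 0.461 FPKM, against 0.192 ± 0.0364 FPKM with vehicle (SD, n = 3 each), a ratio of 5.75 and a log2 fold change of 0.79 (SE 0.18, limma adjusted p = 0.0088). The 1 mg/kg mean was 1.00 ± 0.177 FPKM (n = 3), a ratio of 5.23 and a log2 fold change of 0.75 (SE 0.18, limma adjusted p = 0.00992). Both calls were lost under quantile normalisation, where the changes were 0.42 (limma adjusted p = 0.129) and 0.51 (0.0745). Without the libraries between the groups they were 0.98 and 0.82.

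Erbb2, the partner receptor without a ligand, varied least. It had 8.52, 8.91 and 8.71 FPKM with vehicle, 7.61, 7.81 and 6.67 FPKM at 0.1 mg/kg and 8.41, 9.09 and 8.49 FPKM at 1 mg/kg. The 0.1 mg/kg samples lay below all vehicle and all 1 mg/kg samples, while the 1 mg/kg and vehicle samples overlapped. The mean was 7.36 ± 0.61 FPKM at 0.1 mg/kg and 8.71 ± 0.195 FPKM with vehicle (SD, n = 3 each), with a log2 fold change of −0.22 that missed the threshold (SE 0.08, limma adjusted p = 0.0514). In 8 alternatives it passed, among them TPM (−0.35, adjusted p = 0.0161), quantile normalisation (−0.26, 0.0208) and the fit without the libraries between the groups (−0.26, 0.0175). At 1 mg/kg the mean was 8.66 ± 0.373 FPKM (n = 3) and the log2 fold change −0.01 (SE 0.08, limma adjusted p = 0.944). Mien1, a gene on the opposite strand whose exons overlap those of Erbb2 in the mouse annotation, had 9.61 to 12.1 FPKM at 0.1 mg/kg, against 6.42 to 7.78 FPKM with vehicle. Whether counting used strand is not given in the sources used here, and without it reads of overlapping genes cannot be told apart. Ereg overlaps Gm19610 in the same way, which had 5.32 to 9.80 FPKM over the 9 samples, and Tgfa overlaps Gm43917, which did not exceed 0.0209 FPKM.

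**Figure D2:**
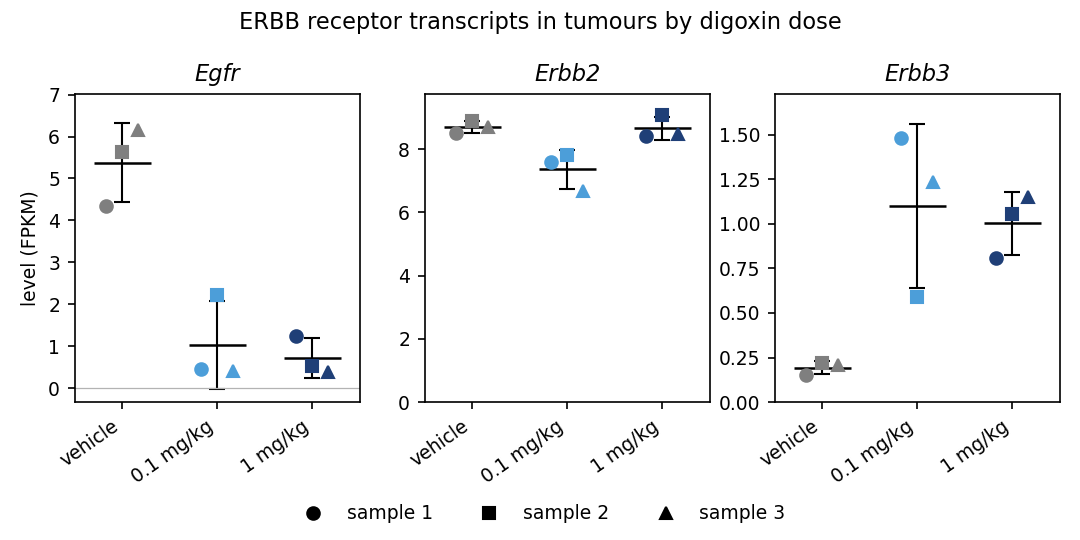
Level of each receptor transcript (FPKM, linear axes) in the 9 samples by group; points are samples, with the same marker for a sample number, and lines with bars are the mean ± SD (n = 3). Egfr is lower and Erbb3 higher in every digoxin sample than in every vehicle sample, with 0.1 mg/kg sample 2 and 1 mg/kg sample 1 nearest to vehicle, and Erbb2 is lower in the 0.1 mg/kg samples than in all others.

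No gene of the 7 passed the test between the doses. Between 1 mg/kg and 0.1 mg/kg limma called 0 of the 7 genes in either direction, beside 0.0% of all tested genes called higher and 0.0146% called lower, and 4 of the 7 (Areg, Ereg, Hbegf and Erbb2) had an unadjusted p under 0.05, beside 13.6% of all tested genes. Limma-voom on recovered reads also called 0. The log2 difference was 1.26 for Ereg (SE 0.32, limma adjusted p = 0.166), 1.03 for Hbegf (SE 0.27, adjusted p = 0.169), 0.96 for Areg (SE 0.39, adjusted p = 0.33) and 0.21 for Erbb2 (SE 0.08, adjusted p = 0.29). For these genes all 1 mg/kg samples lay above all 0.1 mg/kg samples (4 of 7 genes), beside 6.05% of all tested genes, and they lay below for 0 of 7, beside 11.0%. Without the pair of libraries between the groups, Hbegf was called higher at 1 mg/kg than at 0.1 mg/kg (0.83, limma adjusted p = 0.02). That fit called 131 of 13687 tested genes higher and 334 lower between the doses, against 0 and 2 with all samples. With all samples, the difference was 0.04 for Tgfa (SE 0.16), −0.16 for Egfr (SE 0.33) and −0.05 for Erbb3 (SE 0.18). The limma adjusted p was 0.945, 0.883 and 0.941, and the sign of the difference depended on the samples kept.

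**Figure D3:**
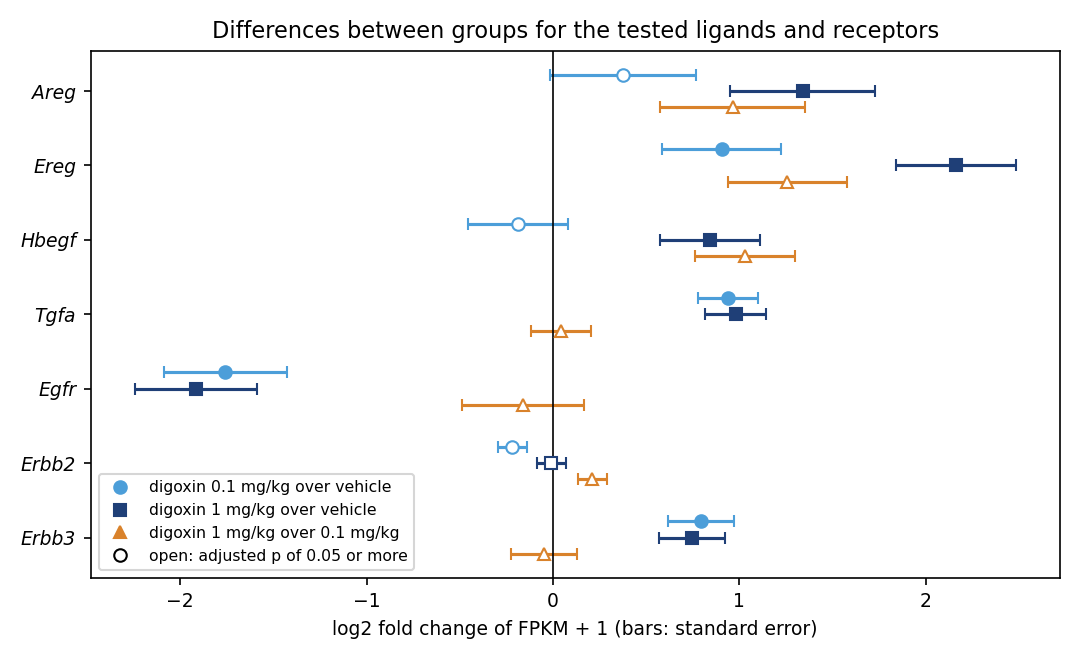
Log2 fold change of FPKM + 1 (x axis) for the 7 tested genes in the 3 comparisons; bars are standard errors and open symbols mark an adjusted p of 0.05 or more. Ereg (0.91 and 2.16), Tgfa (0.94 and 0.98) and Erbb3 (0.79 and 0.75) are higher and Egfr (−1.76 and −1.92) lower at both doses, while Areg and Hbegf are called only at 1 mg/kg.

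Per length, the order of the transcripts differed between the groups. With vehicle it ran Areg, Erbb2, Hbegf, Egfr, Ereg, Tgfa, Btc and Erbb3, and only Areg and Erbb2, and Btc and Erbb3, overlapped their neighbour. At 0.1 mg/kg it ran Areg, Erbb2, Ereg, Hbegf, Tgfa, Erbb3, Egfr and Btc, with Erbb2, Ereg and Hbegf overlapping in turn and likewise Tgfa, Erbb3 and Egfr. At 1 mg/kg it ran Areg, Ereg, Hbegf, Erbb2, Tgfa, Erbb3, Egfr and Btc, with overlap between Areg and Ereg, Ereg and Hbegf, and Erbb3 and Egfr. Egfr thus stood above Ereg, Tgfa and Erbb3 with vehicle, and was the receptor transcript with the lowest mean at both digoxin doses, within the spread of Erbb3.

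Egfr made up 33.4%, 38.1% and 40.9% of the summed FPKM of the 3 receptors in the vehicle samples. Its share was 4.73%, 21.0% and 4.83% in the 0.1 mg/kg samples and 12.0%, 4.92% and 3.76% in the 1 mg/kg samples. The share of Erbb3 was 1.15% to 1.49% with vehicle, 5.53% to 15.5% in the 0.1 mg/kg group and 7.71% to 11.5% in the 1 mg/kg group, and Erbb2 made up the rest. No digoxin sample overlapped the vehicle range for these shares. Erbb2 stood 1.41 to 1.96 times as high as Egfr with vehicle, 3.50 to 16.9 times at 0.1 mg/kg and 6.72 to 22.5 times at 1 mg/kg. The summed FPKM of the 5 ligands was 18.9 to 26.8 with vehicle and 25.3 to 37.5 at 0.1 mg/kg. In the 1 mg/kg samples it was 117.8, 46.6 and 51.9, above every other sample. The share of Areg in that sum overlapped between the groups (45.7% to 55.9% with vehicle, 44.2% to 58.2% in the 0.1 mg/kg group and 45.1% to 53.7% in the 1 mg/kg group). The share of Ereg was 11.2% to 13.9% with vehicle, 16.5% to 27.3% in the 0.1 mg/kg group and 23.9% to 28.2% in the 1 mg/kg group. That of Hbegf was 29.1% to 36.5% with vehicle, 19.6% to 21.3% in the 0.1 mg/kg group and 19.8% to 23.01% in the 1 mg/kg group. These shares are descriptions of the values above and were not tested.

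**Figure D4:**
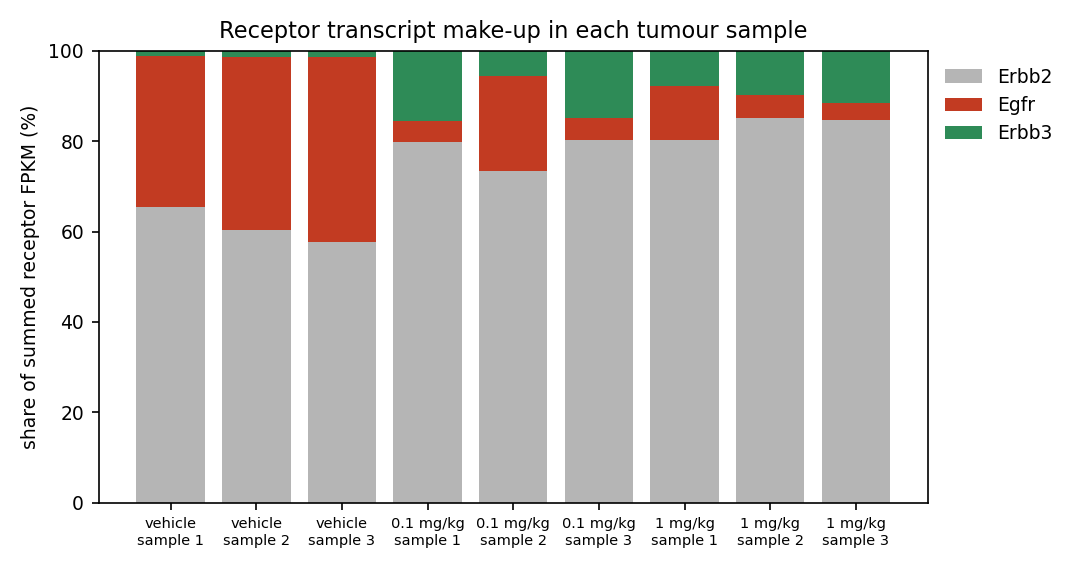
Share of each receptor in the summed FPKM of Egfr, Erbb2 and Erbb3 (%, stacked to 100) in each of the 9 samples. Egfr takes at most 21.0% in a digoxin sample, that of 0.1 mg/kg sample 2, against 33.4% to 40.9% in the vehicle samples.

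The tumours are mixed tissue, and in bulk RNA fewer cells of a type and less RNA per cell cannot be told apart. Beside the lower Egfr, the summed level of the 7 fibroblast markers was 331 to 678 FPKM at 0.1 mg/kg and 347 to 594 FPKM at 1 mg/kg, against 975 to 1091 FPKM with vehicle. The markers did not move one way: at 0.1 mg/kg 3 of 7 were called lower and 2 higher, and at 1 mg/kg 4 lower and 1 higher, with Pdgfra lower (−0.69 and −0.82) and Col1a1 higher (1.41 and 1.86). Beside the higher Areg, Ereg and Hbegf, the 7 neutrophil markers summed to 502 to 1162 FPKM at 1 mg/kg, against 50.2 to 181 FPKM with vehicle, and 6 of 7 were called higher. At 0.1 mg/kg they summed to 127 to 768 FPKM and 4 of 7 were called higher. Within the 1 mg/kg group, Areg, Ereg and Hbegf were highest in sample 1, a library that lay between the groups. S100a8 (120 FPKM), S100a9 (297 FPKM) and Retnlg (55.6 FPKM) were lowest there. Csf3r and Cxcr2 were lowest there too, while Mmp8 and Ly6g lay between the other samples of the group. The 8 macrophage markers summed to 1372 to 2087 FPKM at 0.1 mg/kg and 865 to 1400 FPKM at 1 mg/kg. They summed to 1030 to 1117 FPKM with vehicle. Of these 8, 5 were called higher at 0.1 mg/kg, and 4 higher and 2 lower at 1 mg/kg. Beside these fibroblast, neutrophil and macrophage counts, 21.6% of all tested genes were called higher and 20.7% lower at 0.1 mg/kg. At 1 mg/kg 20.7% of all tested genes were called higher and 25.2% lower. Of the macrophage markers, Cd68 (208 FPKM), Fcgr1 (53.7 FPKM) and Adgre1 (18.5 FPKM) were highest in 1 mg/kg sample 1 within that group. Mrc1, C1qa, C1qb and Itgam were lowest there, and Csf1r lay between. The part of these cell types in the ligand and receptor differences was not tested.

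Keratinocytes and Schwann cells, known to express Egfr or Erbb3, were looked for as well. The 7 keratinocyte markers in the table were each under 1 FPKM in every sample and summed to at most 0.77 FPKM. Of the 6 Schwann cell markers only Mbp passed the filter, and it was lower at both doses (−1.47 and −1.70). Their sum, most of it Mbp in the vehicle samples, was 3.37 to 4.26 FPKM at 0.1 mg/kg and 1.79 to 2.66 FPKM at 1 mg/kg, against 6.74 to 7.31 FPKM with vehicle. Cdh19 had 0.239 to 2.08 FPKM at 0.1 mg/kg and 0.0346 to 0.0923 FPKM at 1 mg/kg, against 0.194 to 0.216 FPKM with vehicle. Sox10 had 0.0151 to 0.0306 FPKM at 0.1 mg/kg and 0.0931 to 0.178 FPKM at 1 mg/kg, against 0 to 0.0262 FPKM with vehicle. The list thus did not move one way, and its part in the Erbb3 difference was not tested. Of the simple epithelium markers, 3 of 7 passed the filter. Krt8 had 58.7 to 105.3 FPKM at 0.1 mg/kg and 103.2 to 126.4 FPKM at 1 mg/kg, against 1.70 to 4.13 FPKM with vehicle. Krt18, its partner keratin, had 0.932 to 16.8 FPKM at 0.1 mg/kg and 1.03 to 8.84 FPKM at 1 mg/kg, against 43.1 to 63.0 FPKM with vehicle, and Krt19 was higher (1.80 and 2.95). The highest Krt18 value of each digoxin group was that of the same library in which Egfr was highest, the one that lay between the groups. This was not particular to Krt18. Spry1, Lum, Col3a1, Dcn and Mbp, also lower on average with digoxin, were highest in these libraries too, while Pdgfrb was not. The sums of T cell markers were 19.3 to 35.3 FPKM at 0.1 mg/kg and 5.50 to 15.6 FPKM at 1 mg/kg, against 11.9 to 15.0 FPKM with vehicle. Endothelial (20.2 to 63.5 FPKM) and mast cell and innate lymphoid markers (44.2 to 96.6 FPKM) had overlapping sums in the 3 groups. The latter sum held Il1rl1 at 24.0 to 44.9 FPKM with vehicle. At 0.1 mg/kg Mcpt4, Cma1, Tpsb2 and Fcer1a lay above all vehicle samples, as 32.3% of all tested genes did. Kit lay below them, and Cpa3 and Il1rl1 overlapped. All 7 overlapped vehicle at 1 mg/kg, and limma called 0 of the 7 at either dose. Over all tested genes it called 21.6% higher and 20.7% lower at 0.1 mg/kg, and 20.7% higher and 25.2% lower at 1 mg/kg. Muscle markers summed to 42.3 to 915 FPKM in the digoxin samples, against 29.3 to 96.1 FPKM with vehicle.

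The other ligand genes of the EGF family were at low levels. Neither Egf, Epgn (epigen) nor the neuregulin genes Nrg1, Nrg2, Nrg3 and Nrg4 passed the filter. The highest value of any of them was 1.07 FPKM for Nrg4 in 1 mg/kg sample 1. Nrg1 and Nrg2, whose products bind ErbB3, did not exceed 0.248 and 0.32 FPKM. Erbb4 was not analysed here.

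Of the genes that release the ligands, the protease and the cofactor moved in opposite directions. Adam17, which encodes the main sheddase of Areg, Ereg, Hbegf and Tgfa, had 17.9 ± 1.87 FPKM at 0.1 mg/kg and 16.3 ± 2.68 FPKM at 1 mg/kg, against 23.1 ± 1.64 FPKM with vehicle (SD, n = 3 each). It was lower at both doses (−0.35 and −0.48, limma adjusted p = 0.0476 and 0.0135). Rhbdf2, which encodes the iRhom2 cofactor that carries ADAM17 to the cell surface, was higher (0.49 and 0.38, limma adjusted p = 0.00983 and 0.0238). Rhbdl2, a rhomboid protease gene, passed at 0.1 mg/kg (0.37, limma adjusted p = 0.0438) and not at the higher dose (0.01). Rhbdf1, which encodes iRhom1, passed at 1 mg/kg (0.43, limma adjusted p = 0.0482) and not at the lower dose (0.18). The difference between the doses did not pass for either gene (limma adjusted p = 0.272 and 0.535). In all 2 of 7 tested shedding genes were higher and 1 lower at each dose, beside 21.6% higher and 20.7% lower over all tested genes at 0.1 mg/kg and 20.7% higher and 25.2% lower at 1 mg/kg. Adam9 (−0.21 and −0.17) and Adam10 (−0.11 and −0.17) did not pass at either dose.

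The negative regulators of the receptors changed in both directions. Of 13 genes, 3 were higher and 5 lower at 0.1 mg/kg, and 3 higher and 6 lower at 1 mg/kg, with a median of −0.09 and −0.04. Over all tested genes 21.6% were higher and 20.7% lower at 0.1 mg/kg, and 20.7% higher and 25.2% lower at 1 mg/kg. Lower were Socs5 (−0.81 and −1.05), a suppressor that promotes EGFR degradation, the LRIG genes Lrig1 (−0.56 and −0.47) and Lrig3 (−0.69 and −0.57), the first of which encodes a membrane protein that lowers ERBB receptor levels, and the ubiquitin ligase gene Cbl (−0.39 and −0.49). Higher were Cblb (0.41 and 0.87), the relative of Cbl, and the phosphatase gene Ptpn12 (0.42 and 0.65). The limma adjusted p of these 6 genes was 0.00147 to 0.0253 at the lower dose and 0.000809 to 0.00659 at the higher dose. Lrig1 was abundant, with 43.2 ± 0.707 FPKM at 0.1 mg/kg and 46.2 ± 1.98 FPKM at 1 mg/kg, against 64.5 ± 5.47 FPKM with vehicle (SD, n = 3 each).

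Of 16 adaptor and RAS-ERK genes, 0 were higher and 5 lower at 0.1 mg/kg, beside 21.6% higher and 20.7% lower over all tested genes. At the higher dose 0 were higher and 3 lower, beside 20.7% higher and 25.2% lower, so at this dose lower calls were no more frequent than over all genes. Gab1, the docking protein gene, had 11.2 ± 1.38 FPKM at 0.1 mg/kg and 11.0 ± 1.35 FPKM at 1 mg/kg, against 18.2 ± 0.324 FPKM with vehicle (SD, n = 3 each; −0.67 and −0.68). The RAS exchange factor gene Sos2 (−0.49 and −0.47) and the SHP2 phosphatase gene Ptpn11 (−0.33 and −0.32) were lower at both doses. Sos1, another RAS exchange factor gene, passed at 0.1 mg/kg (−0.32) and not at 1 mg/kg (−0.22), and Mapk3, which encodes ERK1, passed at neither (−0.20 and −0.17). Of 13 PI3K-AKT and STAT genes, 0 were higher and 2 lower at 0.1 mg/kg, and 1 was higher and 3 lower at 1 mg/kg, beside the same shares of all genes. Akt1 (−0.57 and −0.67) and Stat5b (−0.58 and −0.65) fell at both doses, Mtor passed at 1 mg/kg (−0.22 and −0.36), and Stat3 was higher at 1 mg/kg (0.29 and 0.56). Pik3cb (−0.36 and −0.16) did not pass.

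ERK output genes, whose transcription ERK activity is known to raise in many cells, went both ways. At 0.1 mg/kg 1 of 16 was higher and 6 were lower (21.6% and 20.7% of all tested genes), and at 1 mg/kg 6 were higher and 5 lower (20.7% and 25.2% of all). The sprouty inhibitor gene Spry1 had 2.71 ± 2.17 FPKM at 0.1 mg/kg and 2.19 ± 1.16 FPKM at 1 mg/kg, against 15.3 ± 2.23 FPKM with vehicle (SD, n = 3 each; −2.28 and −2.41). Its relative Spred2 (−1.01 and −0.94) and the transcription factor gene Etv5 (−0.57 and −0.76) were lower too. The ERK phosphatase gene Dusp4 had 14.0 ± 4.39 FPKM at 0.1 mg/kg and 38.0 ± 20.7 FPKM at 1 mg/kg, against 7.81 ± 0.623 FPKM with vehicle (SD, n = 3 each; 0.72, adjusted p = 0.105, and 2.03, limma adjusted p = 0.00225). Dusp5, another ERK phosphatase gene, passed at 1 mg/kg (0.50 and 1.31), and Phlda1 was higher at both doses (0.84 and 1.58). As for Areg, Ereg and Hbegf, sample 1 was the highest of the 1 mg/kg group for Dusp4 (61.9 FPKM), Dusp5 (49.1 FPKM) and Phlda1 (37.1 FPKM).

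Of 6 tested genes for surface partners of the ligands and receptors, 5 were higher at each dose and 0 lower, beside 21.6% of all tested genes higher at 0.1 mg/kg and 20.7% at 1 mg/kg. Their median log2 fold change was 0.63 and 0.94, beside 0.02 and −0.04 over all tested genes. Cd9, the tetraspanin that associates with the Hbegf precursor, had 182 ± 26.5 FPKM at 0.1 mg/kg and 202 ± 30.2 FPKM at 1 mg/kg, against 91.7 ± 3.6 FPKM with vehicle (SD, n = 3 each; 0.98 and 1.12, limma adjusted p = 0.00149 and 0.000774). The heparan sulphate carriers Sdc4 (0.63 and 0.95) and Gpc1 (0.71 and 0.93) and the hyaluronan receptor gene Cd44 (0.59 and 0.80) were higher at both doses. Sdc1 passed at 1 mg/kg (1.11) and not at 0.1 mg/kg (0.62, limma adjusted p = 0.0568), Muc1 passed at 0.1 mg/kg (0.51) and not at 1 mg/kg (0.31, limma adjusted p = 0.0555), and Muc4 was below the filter.

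**Figure D5:**
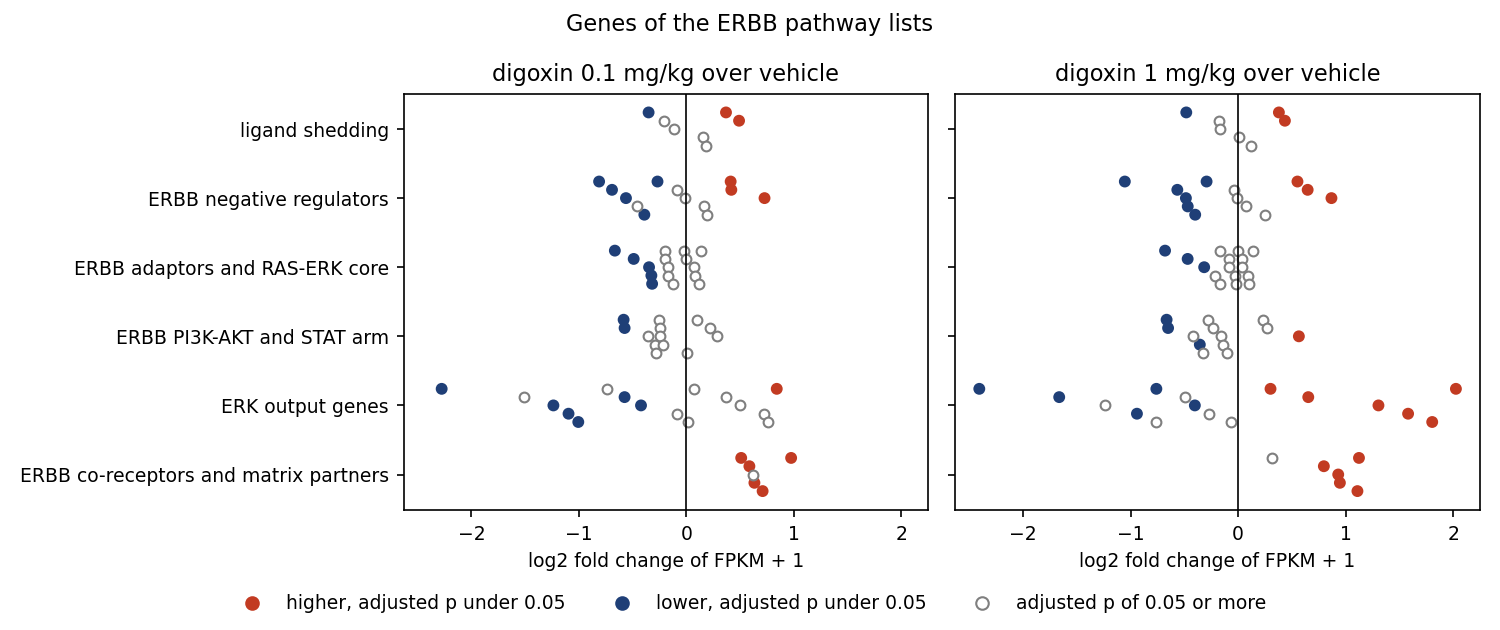
Log2 fold change of FPKM + 1 (x axis) of each tested gene of the 6 pathway lists with tested genes, by list, for each dose against vehicle; filled points passed an adjusted p of 0.05. The co-receptors and matrix partners lie right of 0, and the ERK output genes spread from −2.28 (Spry1) at 0.1 mg/kg and −2.41 at 1 mg/kg to 0.84 (Phlda1) and 2.03 (Dusp4).

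The tested genes most like each ligand or receptor were found by the root mean square (RMS) difference of log2(FPKM + 1) over the 9 samples, each gene centred on its own mean. For Ereg, with an RMS of 0.96 of its own, they were Tnfaip3 (0.17), Egr1 (0.21) and Dusp4 (0.21). For Areg (own RMS 0.73) they were Mt1 (0.24), Maff (0.27) and Slc2a1 (0.29), and for Hbegf (0.55) Nr1d1 (0.17), Tcim (0.18) and Emp1 (0.18). Tnfaip3 averaged 2.40 FPKM with vehicle, 5.69 FPKM at 0.1 mg/kg and 18.4 FPKM at 1 mg/kg, where Ereg averaged 3.03, 6.68 and 18.4 FPKM. For Egfr (own RMS 0.95) near genes were Acsl6 (0.10) and Lrfn3 (0.14). For Tgfa (0.48) they were Tax1bp1, Nlrp4e and Arfgef3 (0.0895 to 0.0936), for Erbb3 (0.40) Fuca2, Birc3 and Gpr85 (0.0831 to 0.0882), and for Erbb2 (0.12) Abcd3, Bcorl1 and Nkap (0.0419 to 0.0468). Each gene was picked from the same 9 samples for its likeness, so these values are descriptions.

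Ereg, Areg and Btc lie next to each other on mouse chromosome 5, in that order in RefSeq, after Epgn. Within this row of 4 ligand genes, Ereg was higher at both doses, Areg was higher at 1 mg/kg, and Btc was lower at both in values below the filter. Epgn, also below the filter, had at most 0.153 FPKM at either dose, against at most 0.171 FPKM with vehicle, and its groups overlapped. Areg stood 1.62 to 3.53 times as high as Ereg at 0.1 mg/kg and 1.60 to 2.15 times at 1 mg/kg, against 3.40 to 5.01 times with vehicle.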

How the data were processed

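Poly(A) RNA of 9 tumour samples was sequenced as 150 bp read pairs, per the labels' protocols. The deposited table held FPKM values made by the authors for 35321 genes. The submitters' processing notes name fastp 0.22.0, HISAT2 2.2.1 and GRCh38. The last is a human build, while the gene names are those of mouse, so no coordinates from the table are printed. Counter and annotation: not given in the sources used here. A transcript's share of a library sets its FPKM, so a large change in a few abundant genes moves all others.

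The depth in the FPKM denominator was recovered from the spacing of the values. With it, every value of the 8 genes, and of 99.95% of tested genes, was whole within 0.03 reads. Whether 1 read stands for a read or a pair is not stated. At these depths, the 0.168 FPKM of Btc in vehicle sample 1 rest on 37 reads. Recovered reads served only for read counts and limma-voom.

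The deposited FPKM were tested as log2(FPKM + 1) with limma 3.58.1 under R 4.3.3, with all 9 samples in 1 fit of group means, moderated two-sided tests with a mean-variance trend (6 residual and 2.71 prior degrees of freedom), and Benjamini-Hochberg adjustment over the 13687 genes that reached 1 FPKM in 3 or more samples. On simulated data of 13687 genes, 100 were changed by log2 1 and 100 by log2 2. With the samples of 1 mg/kg and vehicle, the step recovered 83 and 90 of these, with 7 false calls of 180. With those of 0.1 mg/kg and vehicle it recovered 76 and 95, with 10 false calls of 181. Between the doses it recovered 81 and 90, with 11 false calls of 182. Whether these rates hold where many more genes differ, as in the deposited data, was not tested. Python 3.11.15 with NumPy 2.4.6, pandas 2.3.3, SciPy 1.17.1 and matplotlib 3.10.9 did the rest.

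The genes described, the pathway and marker lists, the tests and the naming rule were chosen with earlier results of these data known. Of each pathway list all genes were counted and up to 6 with the smallest unadjusted p in either dose against vehicle named. For each tested ligand or receptor the 3 genes with the smallest RMS difference were named. Some genes that these rules name are not reported here. Markers, genes that overlap or neighbour a ligand gene, and Krt8, Krt18 and Krt19 were named beside the results they move with. The alternatives were a pseudocount of 0.1, no filter, a mean of at least 5 FPKM, quantile normalisation, TPM, equal medians, robust empirical Bayes, limma without trend, only the groups compared, a replicate block, limma-voom and each sample left out. Added after seeing the data were a fit without the pair of libraries between the groups and limma-voom on genes with at least 10 reads.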

Additional observations from a re-analysis of the deposited data

How the results depend on the processing

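Of the alternative values for the 7 tested genes, 406 kept their direction and their side of the threshold, 23 lost the call, 10 gained one and 14 changed sign. Part of this was fixed in advance. Settings that altered only the filter, the spread estimate, the replicate block or a sample outside the comparison could not change the direction. Between the doses 0 of the 7 genes had a call to lose. At 0.1 mg/kg against vehicle, 1 gene was higher under a mean of at least 5 FPKM (4 genes tested) and under quantile normalisation, and 2 to 3 with 1 sample left out. Over all tested genes, 1887 of 8179 were higher under the 5 FPKM mean and 2403 of 13687 under quantile normalisation. In that comparison 2 were lower with no filter, quantile normalisation, TPM, equal medians or limma-voom, 3 without the pair of libraries between the groups, and 1 to 2 with 1 sample left out. Lower calls over all 13687 tested genes moved as well. They were 2829 as deposited, 3552 under quantile normalisation, 3790 under TPM, 3132 with equal medians and 4053 without the pair. With no filter 2358 of 35321 genes were lower, and under limma-voom 2967 of 13680. At 1 mg/kg against vehicle, 3 were higher with no filter (where the call of Areg, with adjusted p = 0.0617, and of Hbegf, 0.0795, was lost) and under the 5 FPKM mean. Over all tested genes, 2591 of 35321 were higher with no filter and 1831 of 8179 under the 5 FPKM mean. With 1 sample left out 3 to 5 were higher, 3 without vehicle sample 2 or vehicle sample 3. In the same comparison 2 were lower with no filter (Btc being added), 0 with a mean of at least 5 FPKM, which removes Egfr, and 1 to 1 with 1 sample left out. Over all tested genes, 3112 were lower with no filter and 2328 under the 5 FPKM mean. Between the doses 1 was higher without the pair of libraries, beside 131 of 13687 tested genes. The cause of the other shifts was not tested.

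The values that changed sign were all small. For Erbb2 at 1 mg/kg against vehicle they were 0.0022 with equal medians, 0.011 without the pair of libraries and −0.039 to 0.011 with 1 sample left out. Between the doses, Tgfa was −0.028 without the pair of libraries and −0.12 to 0.14 with 1 sample left out, Egfr 0.023 and −0.37 to 0.23, and Erbb3 0.087 under quantile normalisation and −0.24 to 0.084 with 1 sample left out. Rescaling to TPM moved the median of all genes to −0.09 at 0.1 mg/kg and −0.12 at 1 mg/kg. Under TPM the calls of Egfr and Tgfa at both doses and of Ereg at 1 mg/kg held. Calls over all genes with 1 sample left out ranged over 1803 to 3805 higher and 1611 to 3393 lower at 0.1 mg/kg, and 1888 to 3849 higher and 2241 to 3727 lower at 1 mg/kg.

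Deviations of same-numbered samples correlated at 0.0908 to 0.193 between vehicle and 0.1 mg/kg and −0.0587 to 0.00057 between vehicle and 1 mg/kg. Between the doses they correlated at −0.441 to 0.279. With 3 samples a group, and the libraries between the groups under different numbers, this cannot settle whether replicate numbers pair the samples. With the replicate number as a block, 3 of the 7 genes were higher and 1 lower at 0.1 mg/kg. At the higher dose 5 were higher and 1 lower, and 0 differed between the doses, as without the block. Over all tested genes, the block changed the calls at 0.1 mg/kg from 2952 higher and 2829 lower to 2569 and 2398. At 1 mg/kg it changed them from 2833 higher and 3444 lower to 2486 and 3055. Btc, at 3 to 65 reads, is limited by counting.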

Other observations

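The ligand genes on chromosome 5 lie beside a row of CXC chemokine genes, which attract neutrophils or come from platelets. Going away from Epgn, Mthfd2l, a mitochondrial folate enzyme gene, comes first and Cxcl2 and Cxcl1 after it. Mthfd2l had 2.09 to 3.13 FPKM at 0.1 mg/kg and 1.87 to 2.05 FPKM at 1 mg/kg, against 3.16 to 3.65 FPKM with vehicle, and was lower at both doses (−0.34 and −0.60, limma adjusted p = 0.0479 and 0.00507). Cxcl2 had 26.1 to 119 FPKM at 0.1 mg/kg and 89.9 to 362 FPKM at 1 mg/kg, against 3.42 to 15.7 FPKM with vehicle (2.63 and 4.42, limma adjusted p = 0.0177 and 0.00206). Cxcl1 passed at 1 mg/kg (0.38 and 2.29, limma adjusted p = 0.611 and 0.0121), and its highest value, 193 FPKM, was in 1 of the 3 samples of that dose. Cxcl3 (2.71 and 3.86) and Pf4 (1.82 and 1.95) were higher at both doses, Ppbp passed at 1 mg/kg (1.28 and 2.19), and Cxcl5 at neither (−0.32 and −0.34). On the other side of Btc, Parm1 was at most 0.21 FPKM and Rchy1, a ubiquitin ligase gene, was higher at both doses (0.39 and 0.34, limma adjusted p = 0.0115 and 0.0173). Genes in this row thus included called rises and a called fall, and whether their position has a part in these differences was not tested.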
